A study of Homo sapiens with 12 samples.

Results

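The comparison set a line of Caco-2 cells that stably expresses TLR4 with the T399I substitution (TLR4-T399I) against a line that expresses wild-type TLR4 (TLR4-WT). Its members were the 3 arrays titled with each name, 6 of the 12 arrays of the series, compared at all 33297 probe sets as the difference of group means on the log2 scale. Caco-2 is a human colon carcinoma line used as a model of the intestinal lining. It also makes many proteins of fetal gut and liver. The other groups were a line with the TLR4-D299G substitution and untransfected cells, with 3 arrays each. The constructs carried an HA tag, both substitutions were introduced into the same wild-type plasmid, and 1 µg of plasmid was transfected per well. Stable clones were then selected with 1 µg/ml blasticidin, so the T399I and WT groups share plasmid, tag and drug selection. All groups were kept in culture for 8 days, with no ligand named in the labels. The untransfected cells had taken up no DNA, and the groups did not include cells with an empty vector. The labels do not give the number of clones behind a line, so the substitution cannot be told apart from other differences between separately selected cells. Nor do they say that the 3 samples of a group were separate cultures, so p-values reflect only how these samples spread, and that spread may be technical.

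TLR4 is a cell-surface receptor that binds bacterial lipopolysaccharide together with its partner MD-2, and signals through adaptors such as MyD88 to NF-kB and, through TRIF, to interferon genes. The threonine that T399I replaces lies in the leucine-rich repeats outside the cell, and T399I is a common human variant often inherited together with D299G. In intestinal epithelium TLR4 is normally kept low and takes part in the response of the lining to bacteria and in its repair.

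All values below are log2 expression values from RMA, which subtracts background, gives all arrays the same distribution and combines the probes of a probe set. Differences are T399I minus WT on that scale unless another pair is named. Adjusted p-values come from limma with Benjamini-Hochberg adjustment over all probe sets, and a probe set or gene was called when that value was under 0.05. The quartiles of all values lay at 5.25 and 8.76, and a gene below 5.25 may lie near background, which the files do not mark. Array medians ran from 6.88 to 6.97 in T399I and from 6.96 to 6.97 in WT. Pairs of T399I arrays correlated across probe sets at 0.9918 to 0.9942 and pairs of WT arrays at 0.9942 to 0.9957. T399I replicate 1 correlated with WT replicate 3 at 0.9925, above its 0.9918 with T399I replicate 2, so the lines were close and the T399I arrays the more scattered. Of 10 intestinal epithelial markers, 7 lay above the upper quartile in T399I and 8 in WT, with 1 below the lower quartile in each.

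TLR4 itself was high in both lines and was not called between them. TLR4 read 8.29, 8.39 and 8.34 in T399I and 8.62, 8.71 and 8.49 in WT, against 8.81 ± 0.08 (SD, n = 3) in D299G and 4.83 ± 0.27 in untransfected cells. The 3 T399I arrays were all below the 3 WT arrays, but the difference of -0.27 did not pass the test (SE 0.12, 95% interval from -0.54 to 0.00, adjusted p = 0.21). Unlike the adjusted p-value, this interval is not adjusted for the number of probe sets, and it uses the 8 residual degrees of freedom alone. Against D299G, TLR4 was lower in T399I by 0.47 on the log2 scale (adjusted p = 0.0214). The probes do not tell tagged from native TLR4 or T399I from wild type, so these values do not show which form of TLR4 was transcribed. LY96, which encodes MD-2, read 3.42, 3.61 and 3.61 in T399I and 3.40, 3.42 and 3.55 in WT, below the lower quartile throughout (adjusted p = 0.752). CD14, which hands lipopolysaccharide to TLR4, read 7.46, 7.27 and 7.70 in T399I and 7.62, 7.64 and 7.81 in WT, and the groups overlapped (adjusted p = 0.27). MYD88 read 8.02, 8.13 and 8.14 in T399I and 8.25, 8.31 and 8.29 in WT, with no overlap but no call (difference -0.19, adjusted p = 0.0912).

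Across the array, 3456 of 33297 probe sets were called (10.4%), of which 1964 were higher (5.9%) and 1492 lower (4.48%) in T399I. Most of these differences were small, since 162 were called and at least 2-fold apart (0.487%), 115 higher and 47 lower. At 1 probe set per gene, 1542 of 18417 genes rose (8.37%) and 1109 fell (6.02%). Centring each array on its own median gave 2054 higher and 913 lower probe sets, so the share of higher calls was 69.2% in place of 56.8%, and the median of all genes moved from -0.02 to 0.03. The count of calls depended on single arrays, at 2119 without T399I replicate 3, 2194 without WT replicate 1 and 2183 without WT replicate 2. The arrays of the lines did not overlap at 8843 probe sets (26.6%). In the other comparisons that share these arrays, 4476 probe sets were called between T399I and D299G (13.4%), 5618 between D299G and WT (16.9%), 9806 between T399I and untransfected cells (29.5%) and 10404 between WT and untransfected cells (31.2%).

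Among the largest rises in T399I were genes for which T399I stood above all other groups and genes for which WT stood below them. A gene parted a line from every other group when it was called in the same direction against each of the other 3. T399I was higher than each other group at 282 genes (1.53% of 18417) and lower at 286 (1.55%). WT was higher than each other group at 244 genes (1.32%) and lower at 513 (2.79%). A difference between the 2 lines can therefore lie on either side. Values of D299G and untransfected cells are given beside some genes to show which. For genes without both, a rise or fall only means T399I relative to WT.

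CST1, a secreted inhibitor of cysteine proteases, rose 13.7-fold and T399I was its highest group. It read 9.65, 10.15 and 10.06 in T399I and 6.19, 5.91 and 6.44 in WT, with 8.06 ± 0.33 in D299G and 6.0 ± 0.27 in untransfected cells (difference 3.77, SE 0.20, adjusted p = 2.04e-06). CLDN6, a tight junction claudin best known from embryonic epithelia, rose 9.02-fold. It read 9.18, 9.36 and 9.54 in T399I and 6.46, 6.51 and 5.59 in WT (difference 3.17, SE 0.23, adjusted p = 1.67e-05), and WT replicate 3 was the lowest of the 6 arrays. D299G stood between, at 7.35 ± 0.09, and untransfected cells read 5.74 ± 0.34. FADS2, the desaturase that begins the conversion of dietary polyunsaturated fatty acids to longer ones, rose 4.22-fold. It read 10.30, 10.23 and 10.23 in T399I and 8.17, 8.19 and 8.17 in WT, with a spread within each line far below the distance between them (difference 2.08, SE 0.05, adjusted p = 8.15e-09). D299G at 8.25 ± 0.02 and untransfected cells at 8.54 ± 0.04 were close to WT, so the rise was that of T399I.

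GABRA3, a subunit of the GABA-A chloride channel, read 6.90, 7.31 and 7.63 in T399I and 4.49, 5.0 and 4.53 in WT, a 6.09-fold rise from below the lower quartile, so the size of this fold is uncertain. The same holds for SCIN, which encodes the actin-severing protein scinderin and rose by 1.98, and for TLL1, a protease that processes procollagen and rose by 1.45. LIN28A, an RNA-binding protein that blocks let-7 maturation in embryonic cells, read 7.66, 8.49 and 7.79 in T399I and 6.17, 6.15 and 6.36 in WT. It rose 3.37-fold (difference 1.75, SE 0.17, adjusted p = 0.000129), and its other probe set rose 2.8-fold. ITGB8, an integrin subunit that activates latent TGF-beta, read 7.41, 7.59 and 7.48 in T399I and 6.15, 6.09 and 6.17 in WT and rose 2.56-fold (difference 1.36, SE 0.07, adjusted p = 1.35e-06). In D299G LIN28A and ITGB8 lay near WT, at 6.36 ± 0.05 for LIN28A and 6.21 ± 0.06 for ITGB8.

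CHI3L1 had the largest difference of all, and there WT was the lowest group and T399I the highest. This gene encodes a secreted chitin-binding protein without chitinase activity that is raised in inflamed mucosa. It read 9.90, 10.22 and 10.01 in T399I and 5.98, 6.22 and 6.16 in WT, a 15.2-fold difference (difference 3.92, SE 0.09, adjusted p = 5.3e-09). D299G was high as well, at 9.45 ± 0.04, and untransfected cells lay between at 7.70 ± 0.06. T399I was above D299G by 0.59 on the log2 scale (adjusted p = 0.00119) and above untransfected cells by 2.34. The difference of WT from untransfected cells was -1.58. BAMBI, a decoy receptor that dampens TGF-beta signalling, read 10.76, 11.01 and 10.91 in T399I and 8.75, 8.67 and 8.6 in WT, 4.66-fold higher in T399I, with 10.51 ± 0.07 in D299G and 10.26 ± 0.08 in untransfected cells. TF, the iron carrier transferrin, was 6.33-fold higher in T399I, at 8.31, 8.86 and 8.43 in T399I and 6.07, 5.44 and 6.10 in WT. It was higher still in D299G, at 9.52 ± 0.17, and reached 7.45 ± 0.09 in untransfected cells. EXPH5 and FAM171B were 3.75-fold and 2.98-fold higher in T399I than in WT, and WT was again below every other group. EXPH5 lay below the lower quartile in WT, so its fold is uncertain.

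The other large rises were shared with D299G to differing degrees. ACTL8, an actin-like gene expressed mainly in testis and tumours, read 9.76, 9.99 and 9.99 in T399I and 7.25, 7.40 and 7.54 in WT, against 9.98 to 10.02 in D299G, and T399I and D299G were not told apart (difference -0.08, adjusted p = 0.639). TAGLN, an actin-binding protein of smooth muscle, rose 4.07-fold and HSPB8, a small heat shock protein, 4.88-fold over WT, also without a call against D299G (adjusted p = 0.892 and 0.206). ANXA1, a phospholipid-binding protein that limits inflammation, was 4.82-fold higher than in WT and lower than in D299G by 0.83 on the log2 scale (adjusted p = 0.00278). NTS, the gut peptide neurotensin, read 8.76, 9.05 and 8.98 in T399I and 6.32, 6.15 and 6.39 in WT, 6.25-fold higher in T399I and above its level of 7.80 ± 0.14 in D299G. SLPI, an inhibitor of neutrophil elastase at mucosal surfaces, read 10.46, 10.42 and 10.70 in T399I and 8.44, 8.29 and 8.70 in WT, 4.14-fold higher. PLA2G4A, the phospholipase that releases arachidonic acid, and SULT1C4, a sulfotransferase of fetal tissues, rose from below the lower quartile in WT, to 6.10 to 6.67 and 6.68 to 7.22. SULT1C4 was highest in untransfected cells, at 8.97 ± 0.11.

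**Figure D1:**
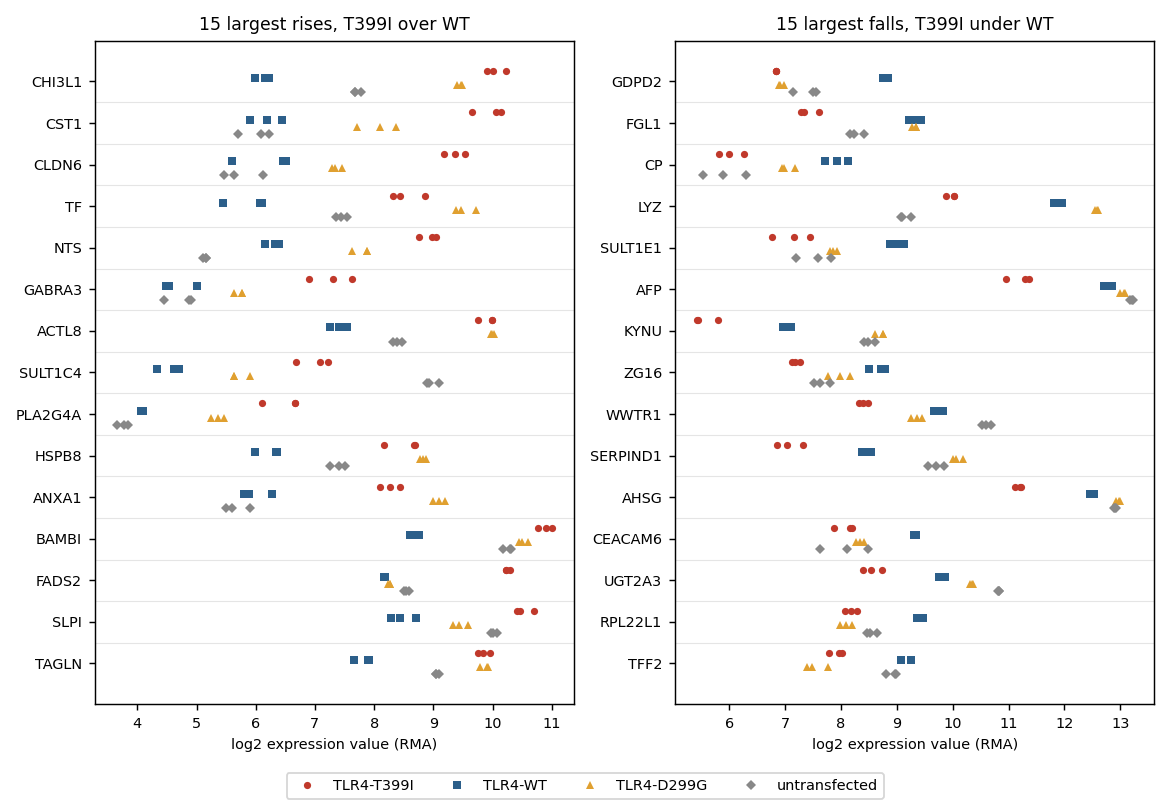
Log2 expression value (RMA) on each of the 12 arrays for the 15 genes with the largest rise (left) and the 15 with the largest fall (right) in T399I against WT. Each point is 1 array and colour and shape give the group. T399I arrays of FADS2 lie at 10.23 to 10.30 and all other groups below 9. For CHI3L1, WT lies below all other groups, at 5.98 to 6.22, and T399I lies highest.

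The largest falls were led by GDPD2, a phosphodiesterase of membrane lipids, on the X chromosome. It read 6.83, 6.83 and 6.84 in T399I and 8.85, 8.75 and 8.78 in WT, a 3.89-fold difference (difference -1.96, SE 0.09, adjusted p = 9.52e-07), and WT was the group that stood out, since D299G lay at 6.93 ± 0.05 and untransfected cells at 7.39 ± 0.22. CP, which encodes the copper-carrying ferroxidase ceruloplasmin, read 6.0, 6.27 and 5.82 in T399I and 8.13, 7.93 and 7.71 in WT, 3.71-fold lower in T399I, with WT above all groups. SULT1E1, the estrogen sulfotransferase, fell 3.66-fold and CEACAM6, an adhesion protein of the colonic surface, 2.38-fold, and WT was highest for both. AASS, an enzyme of lysine breakdown, was 2.24-fold lower than in WT and 1.82-fold higher than in D299G. LYZ, the lysozyme that Paneth cells secrete, read 9.88, 10.02 and 10.02 in T399I and 11.81, 11.83 and 11.95 in WT, 3.71-fold lower (difference -1.89, SE 0.07, adjusted p = 1.21e-07), against 12.58 ± 0.03 in D299G and 9.14 ± 0.10 in untransfected cells. FGL1, a fibrinogen-like protein of liver, fell 3.8-fold and was near WT in D299G, at 9.32 ± 0.04.

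T399I was the lowest group for a set of fetal liver and blood proteins. AFP, the fetal counterpart of albumin, read 10.96, 11.36 and 11.29 in T399I and 12.77, 12.70 and 12.85 in WT, with 13.05 ± 0.05 in D299G and 13.20 ± 0.03 in untransfected cells (2.97-fold lower than WT, difference -1.57, SE 0.10, adjusted p = 4.49e-06). AHSG, the serum protein fetuin-A, read 11.12, 11.23 and 11.20 in T399I and 12.52, 12.46 and 12.47 in WT, with 12.96 ± 0.04 and 12.91 ± 0.03 in the same order of groups (2.46-fold lower than WT, difference -1.30, SE 0.06, adjusted p = 4.48e-07). SERPIND1, the thrombin inhibitor heparin cofactor II, read 6.86, 7.32 and 7.03 in T399I and 8.53, 8.38 and 8.39 in WT. F2, which encodes prothrombin, read 8.64, 8.87 and 8.83 in T399I and 9.93, 9.83 and 9.81 in WT. For both, no T399I array reached any WT array. A2M, the protease trap alpha-2-macroglobulin, read 6.79, 6.81 and 6.84 in T399I and 8.07, 7.70 and 7.91 in WT, against 11.76 ± 0.07 in D299G, the largest distance from D299G among the genes named here (30.8-fold). SERPINA6, the cortisol carrier of plasma, fell 2.09-fold from WT. KYNU, an enzyme of tryptophan breakdown, fell 2.83-fold and UGT2A3, a glucuronidation enzyme, 2.38-fold, and its other probe set fell 1.95-fold.

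Of 39 measured genes for liver secretory proteins, 16 were lower (41.0%) and 5 higher (12.8%), against 6.02% and 8.37% of all genes. Their median difference was -0.31 against -0.02 over all genes. The lower calls ran from 15 to 17 when any 1 array of the 2 lines was left out, and 15 were lower with centred arrays. The 5 that rose included TF. On each array the mean level of this list was 7.87, 8.05 and 7.94 in T399I and 8.28, 8.20 and 8.26 in WT. It was 9.39 in D299G and 9.11 in untransfected cells, and 34 of the 39 members were lower in T399I than in D299G with 0 higher (8.43% and 10.7% of all genes were lower and higher in that comparison). All 4 hepatocyte markers lay above the upper quartile in both lines, and 3 of them were lower in T399I with 0 higher. In a bulk sample, fewer cells of a type and less RNA per cell cannot be told apart.

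Genes that package and absorb lipid were also lower more often than higher. Of 30 measured, 12 fell and 2 rose (median -0.14), where 6.02% of all genes fell and 8.37% rose. Without any 1 array 10 to 11 fell. APOA2, a protein of high-density lipoprotein, read 11.39, 11.65 and 11.68 in T399I and 12.38, 12.42 and 12.48 in WT, 1.81-fold lower. APOC3, which slows the breakdown of triglyceride-rich particles, read 9.42, 9.30 and 9.49 in T399I and 10.24, 10.29 and 10.29 in WT, 1.83-fold lower by both of its probe sets. ABCA1, the transporter that loads cholesterol onto these particles, read 7.35, 7.59 and 7.64 in T399I and 8.55, 8.47 and 8.39 in WT, 1.92-fold lower. The exceptions included ACSL1, which activates long-chain fatty acids and rose 2.57-fold. The complement genes went against the liver list, with 9 of 25 higher and 2 lower (median 0.07). CFI, the protease that inactivates C3b, read 7.88, 8.14 and 8.31 in T399I and 6.53, 6.75 and 6.45 in WT, 2.89-fold higher, and C1S and C5 rose 1.64-fold and 1.73-fold, while C2 fell 1.73-fold. CFI and C5 were higher still in D299G, at 9.50 ± 0.11 and 8.91 ± 0.05.

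Among mitosis and spindle genes, the members that changed all rose in T399I. Of 41 measured members, 24 rose, 17 were not called and 0 fell, at a background of 8.37% of all genes higher, and the list's median was 0.27. Arrays of the 2 lines did not overlap for 33 of the 41, where 32.5% of all genes did not. The size of each rise was small. The mean level of the list was 10.12, 10.28 and 10.23 on the T399I arrays and 9.87, 9.96 and 9.92 on the WT arrays, with 9.95 in D299G and 9.96 in untransfected cells. Every T399I array was above every WT array. The number that rose was 14 without T399I replicate 2 or 3 and 13 without WT replicate 1, 15 when the 6 arrays were fitted alone, and 24 with centred arrays. Against D299G, 18 members were higher in T399I and 1 lower, where 10.7% of all genes were higher and 8.43% lower.

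CENPE, a motor that attaches chromosomes to the spindle, read 7.85, 8.28 and 8.19 in T399I and 7.22, 7.48 and 7.27 in WT, 1.72-fold higher (difference 0.78, SE 0.13, adjusted p = 0.00343). KIF2C, which takes microtubules apart at the centromere, read 9.41, 9.62 and 9.67 in T399I and 8.91, 8.98 and 9.03 in WT, 1.51-fold higher. CDC20, the activator of the anaphase-promoting complex, read 10.58, 10.69 and 10.64 in T399I and 10.18, 10.09 and 10.04 in WT, 1.45-fold higher (difference 0.53, SE 0.06, adjusted p = 0.00043). BUB1, a kinase of the spindle checkpoint, read 10.21, 10.46 and 10.31 in T399I and 9.79, 9.89 and 9.77 in WT, 1.42-fold higher. Genes of DNA replication did not share this, since 3 of 42 rose and 4 fell (7.14% and 9.52%, median 0.04). Over all genes 8.37% rose and 6.02% fell. The rises were 0 without T399I replicate 2 or 3 or WT replicate 1 or 3 and 1 without WT replicate 2, and the falls were 2 without T399I replicate 1 or WT replicate 1 and 1 without WT replicate 2. Among them UNG, which removes uracil from DNA, fell 1.4-fold and CCNE2, a cyclin of S-phase entry, rose 1.4-fold, a call lost without any 1 of 5 arrays. Against D299G, in contrast, 24 of these 42 were higher in T399I and 0 lower, where 10.7% of all genes were higher and 8.43% lower. D299G was the low group there, with a mean level of the list of 9.53, and untransfected cells read 9.6. T399I arrays read 9.72 to 9.86 and WT arrays 9.76 to 9.80.

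Many promoters of mitotic genes hold a CHR element (TTTGAA) near CCAAT boxes, which the DREAM complex and NF-Y are known to bind. RefSeq promoters of 250 bases before and 50 after the start (GRCh38.p14) were found for 34 of the 41 genes. Matches were counted on both strands with overlaps allowed. TTTGAA was found in 23 of the 34 (67.6%) against 11.9% of the promoters of 14239 measured genes, and CCAAT in 26 (76.5%) against 36.3%. Members that rose did not hold them more often, with TTTGAA in 13 of 21 that rose (61.9%) and 10 of 13 not called (76.9%), and CCAAT in 15 of 21 (71.4%) and 11 of 13 (84.6%). The promoters of CDC20 and ASPM, which encodes a spindle pole protein, are shown because they held both motifs and belonged to the members with the largest rises, a choice made after the values were seen. Capitals mark TTTGAA and CCAAT or their reverse complements. A match is a description and not a binding site.
CDC20, chr1:43358731-43359030, plus strand, 2 TTTGAA and 2 CCAAT matches: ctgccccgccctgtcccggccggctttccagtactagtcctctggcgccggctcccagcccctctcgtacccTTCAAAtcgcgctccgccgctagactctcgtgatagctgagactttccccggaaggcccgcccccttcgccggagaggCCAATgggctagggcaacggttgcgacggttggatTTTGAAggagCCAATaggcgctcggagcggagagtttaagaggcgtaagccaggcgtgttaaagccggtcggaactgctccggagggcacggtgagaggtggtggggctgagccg
ASPM, chr1:197146620-197146919, minus strand, 1 TTTGAA and 4 CCAAT matches: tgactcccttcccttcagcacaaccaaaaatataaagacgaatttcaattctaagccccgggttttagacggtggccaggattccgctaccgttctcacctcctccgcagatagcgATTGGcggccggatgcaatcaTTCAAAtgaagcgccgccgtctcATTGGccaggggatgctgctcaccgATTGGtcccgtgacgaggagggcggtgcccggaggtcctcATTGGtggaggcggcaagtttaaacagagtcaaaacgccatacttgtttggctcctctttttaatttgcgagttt

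Metallothioneins, small cysteine-rich proteins that bind zinc and copper and are induced by metal, rose together. Of 11 genes in their list 7 rose and 0 fell, where 8.37% of all genes rose and 6.02% fell. The list also held 2 genes on chromosome 1, outside the cluster on chromosome 16, where 6 of 9 rose. The median of the 11 was 0.56, and 6 to 7 of them rose without any 1 array. MT1F read 9.67, 9.58 and 9.80 in T399I and 8.11, 8.15 and 8.40 in WT, 2.76-fold higher (difference 1.46, SE 0.09, adjusted p = 4.7e-06). MT1X read 8.58, 8.75 and 8.90 in T399I and 7.34, 7.60 and 7.39 in WT, 2.46-fold higher (difference 1.30, SE 0.10, adjusted p = 3.01e-05). MT1E and MT1H rose 1.85-fold and 1.7-fold, MT2A 1.59-fold and MT1B 1.47-fold (the last not called without T399I replicate 3 or WT replicate 2), and SLC30A1, a zinc exporter that metal induces as well, also rose. D299G was higher than T399I for MT1F, at 10.70 ± 0.04, and for 7 of the 11 genes in all, where 8.43% of all genes were. The sequences of this family are nearly identical, so probe sets may share signal. The 3 probe sets of MT2A gave 1.59-fold, 1.53-fold and 6.19-fold.

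The metal-response factor MTF-1 is known to bind metal-response elements, whose core was searched as TGCACNC or TGCGCNC on both strands with overlaps allowed. All 4 metallothionein promoters found in the RefSeq table held it, against 35% of the 14239 promoters. These 3 are shown because their genes rose most among those 4, and capitals mark the cores. The choice was made after the values were seen, and a match is a description only.
MT1X, GRCh38.p14, chr16:56682220-56682519, plus strand, 4 matches: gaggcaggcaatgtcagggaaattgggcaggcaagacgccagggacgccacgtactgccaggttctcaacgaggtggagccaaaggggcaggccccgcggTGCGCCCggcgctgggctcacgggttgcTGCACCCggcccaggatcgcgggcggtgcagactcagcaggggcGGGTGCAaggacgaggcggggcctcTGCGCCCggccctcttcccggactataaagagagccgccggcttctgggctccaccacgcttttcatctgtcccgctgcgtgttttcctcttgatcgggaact
MT1H, GRCh38.p14, chr16:56669564-56669863, plus strand, 8 matches: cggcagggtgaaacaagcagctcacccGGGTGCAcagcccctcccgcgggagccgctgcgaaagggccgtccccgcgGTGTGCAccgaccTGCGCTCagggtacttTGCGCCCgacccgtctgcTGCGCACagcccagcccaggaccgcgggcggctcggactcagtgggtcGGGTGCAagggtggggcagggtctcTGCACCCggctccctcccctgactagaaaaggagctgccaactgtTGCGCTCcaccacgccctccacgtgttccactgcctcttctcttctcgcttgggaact
MT2A, GRCh38.p14, chr16:56608334-56608633, plus strand, 8 matches: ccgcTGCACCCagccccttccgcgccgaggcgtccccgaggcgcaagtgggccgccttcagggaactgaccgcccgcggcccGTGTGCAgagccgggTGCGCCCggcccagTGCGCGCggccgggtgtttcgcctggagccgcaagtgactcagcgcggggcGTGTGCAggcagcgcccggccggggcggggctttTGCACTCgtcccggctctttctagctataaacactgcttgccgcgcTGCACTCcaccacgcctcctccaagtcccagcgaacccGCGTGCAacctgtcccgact

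**Figure D2:**
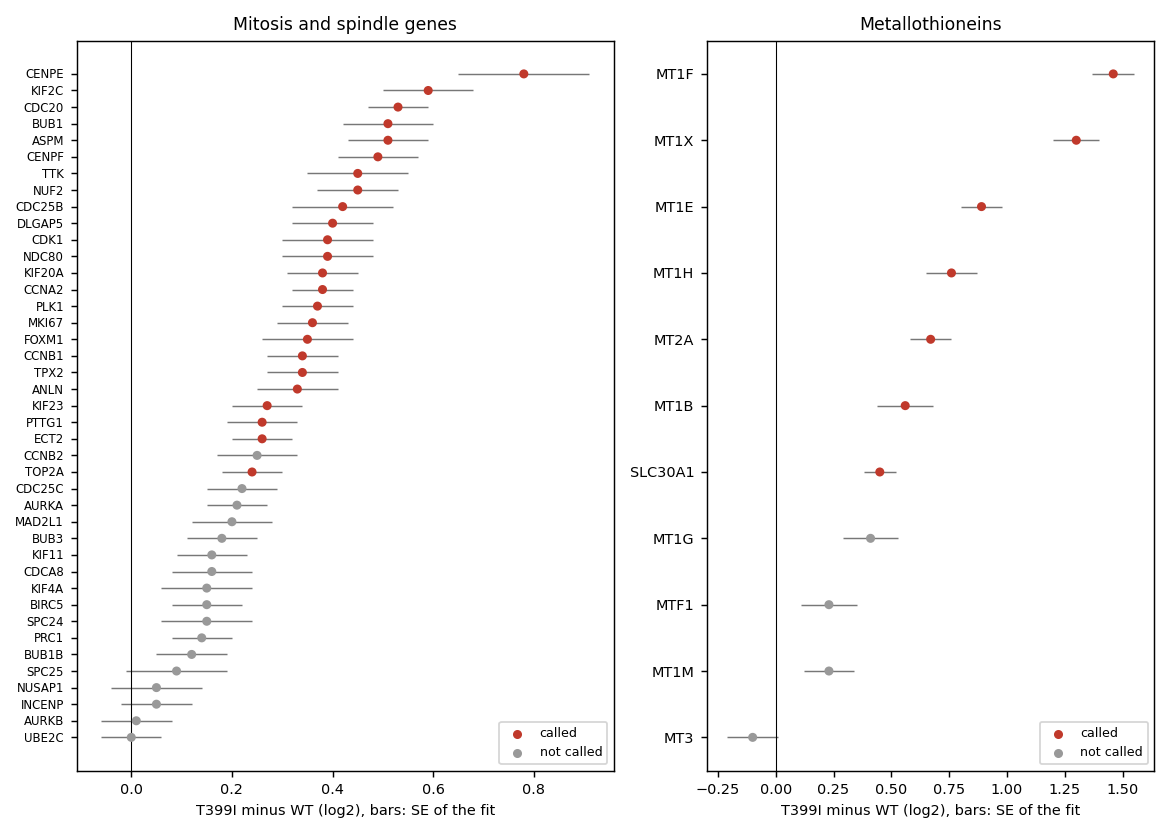
Difference T399I minus WT (log2) for each measured gene of the mitosis list (left, 41 genes) and the metallothionein list (right, 11 genes), with bars for the standard error of the fit. Red points were called and grey points were not. No mitosis gene lies below 0.00 and the largest is CENPE at 0.78, and among metallothioneins MT1F reaches 1.46.

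Over the lists for NF-kB, interferon response and MHC class I, calls went in both directions, against 8.37% of all genes higher and 6.02% lower. In the TLR4 receptor and adaptor list 0 of 19 rose and 1 fell (5.26%, near the share over all genes). That was IRAK1, a kinase that MyD88 recruits, at 8.29, 8.22 and 8.26 in T399I and 8.63, 8.56 and 8.58 in WT (difference -0.33, SE 0.06, adjusted p = 0.00686). IRAK1 lies on the X chromosome within a run of genes that were lower in T399I. WT was its high group, since D299G read 8.26 ± 0.10 and untransfected cells 8.17 ± 0.03. Of 33 NF-kB subunits, inhibitors and targets, 5 rose and 1 fell (median -0.01). The rises included NFKB2, a subunit precursor, at 8.16, 8.16 and 8.18 in T399I and 7.81, 7.62 and 7.78 in WT, CHUK, a kinase that releases NF-kB, and IRF1, an interferon regulatory factor. NFKB2 rose 1.35-fold and stayed called with any 1 array left out. Of the 5 rises, 2 were all the members measured on chromosome 10, where 18.3% of genes rose. The list had 2 genes higher without T399I replicate 2 or 3 or WT replicate 2 or 3, and 3 without WT replicate 1, and the call of IRF1 was among those lost. Of 42 type I interferon-stimulated genes 7 rose and 2 fell (median 0.01), and 4 rose without T399I replicate 2 or WT replicate 2 or 3 and 1 fell without T399I replicate 2 or 3 or WT replicate 3. Of the 7 rises, 4 were all the members measured on chromosome 4, where 13.0% of genes rose. HERC6 read 6.63, 6.91 and 6.88 in T399I and 5.95, 5.87 and 5.74 in WT, 1.94-fold higher, and IFI6 rose 1.66-fold. WT was the lowest group for both, with HERC6 at 6.60 ± 0.07 in D299G and 6.44 ± 0.18 in untransfected cells. IFI6 read 8.76 ± 0.14 in T399I, below 9.47 ± 0.14 in D299G and 9.58 ± 0.16 in untransfected cells. SP110, a nuclear body protein, fell 1.75-fold. ERAP2, a peptidase that trims peptides for MHC class I, read 8.6, 8.66 and 8.75 in T399I and 7.42, 7.21 and 7.32 in WT, 2.56-fold higher. WT was the low group there too, with 8.73 ± 0.04 in D299G and 8.37 ± 0.13 in untransfected cells. In the MHC class I list 4 of 14 genes rose and 2 fell (1 without any 1 array).

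Among growth pathways, SOCS2, a feedback inhibitor of cytokine receptors, rose 2.8-fold, at 8.14, 8.50 and 8.37 in T399I and 6.83, 6.87 and 6.86 in WT. The STAT3 list as a whole had 4 of 26 higher and 4 lower, where 8.37% of all genes were higher and 6.02% lower. The ERK list had 5 of 30 higher and 6 lower (3 lower without WT replicate 1 or 2), with EPHA4, an ephrin receptor, 1.82-fold and HBEGF, a growth factor for EGFR, 1.69-fold higher and ERBB3, a receptor of the EGFR family, 1.48-fold lower. Wnt target and stem cell genes had 3 of 30 higher and 7 lower (median -0.10). The rises were 0 without T399I replicate 2 or 3 or WT replicate 1 and 1 without WT replicate 3, and 6 members were lower in every such fit. LGR5, the receptor that marks intestinal stem cells, read 10.41, 10.58 and 10.57 in T399I and 11.11, 11.15 and 11.05 in WT, 1.5-fold lower (difference -0.58, SE 0.07, adjusted p = 0.000402). ETS2, a transcription factor, and RGMB, a BMP co-receptor, fell 1.54-fold and 1.5-fold, and DKK1, a Wnt inhibitor, rose 1.4-fold, a call lost without T399I replicate 2 or 3 or WT replicate 1.

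Genes of shape and attachment were more often higher than lower, where 8.37% of all genes were higher and 6.02% lower. Of 34 mesenchymal transition genes 10 rose and 2 fell (4 fell without T399I replicate 1). Their median was 0.04. VIM, the intermediate filament of mesenchymal cells, read 8.08, 8.62 and 8.23 in T399I and 6.74, 6.55 and 6.74 in WT, 3.1-fold higher (difference 1.63, SE 0.14, adjusted p = 4.34e-05), close to D299G at 8.10 ± 0.13. THBS1, a matrix glycoprotein, and TGFB2, a TGF-beta ligand, rose 2-fold and 1.82-fold. Fibroblast markers did not move with them, since 0 of 15 rose and 1 fell (2 rose and 2 fell without T399I replicate 1). Of 31 integrins, laminins and matrix genes 10 rose and 2 fell, the latter 1 without T399I replicate 2 or 3 or WT replicate 1 or 2. ITGB6, the epithelial partner of integrin alpha-v, read 6.81, 7.33 and 7.06 in T399I and 5.83, 5.77 and 6.0 in WT, 2.3-fold higher, LAMA4, a laminin chain, rose 2.38-fold from below the lower quartile, and NID1, which links laminin to collagen, 1.78-fold.

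Epithelial junction and keratin genes split evenly, with 9 of 34 higher and 9 lower, against 8.37% and 6.02% of all genes. KRT23, a keratin of some colon tumours, read 6.70, 7.13 and 6.89 in T399I and 5.71, 5.54 and 5.58 in WT, 2.46-fold higher. CEACAM5, the carcinoembryonic antigen, read 6.59, 6.73 and 6.69 in T399I and 7.74, 7.49 and 7.64 in WT, 1.94-fold lower, and CEACAM6 fell beside it. Of 27 HOX genes, which set position along the body axis, 7 rose and 1 fell (0 fell without T399I replicate 3 or WT replicate 1 or 2). The leading ones were in the HOXB cluster. HOXB9 read 10.44, 10.67 and 10.53 in T399I and 9.73, 9.65 and 9.55 in WT, with 8.05 ± 0.03 in D299G and 7.68 ± 0.02 in untransfected cells, so it was 1.87-fold above WT and WT was itself above both other groups. HOXB6, HOXB13 and HOXB5 rose 1.91-fold, 1.84-fold and 1.59-fold.

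Markers of differentiated gut cells moved one by one. MUC13, a membrane mucin, read 10.84, 10.93 and 10.83 in T399I and 9.65, 9.64 and 9.59 in WT, 2.36-fold higher (difference 1.24, SE 0.06, adjusted p = 9.52e-07), and D299G at 9.71 ± 0.05 lay near WT. ZG16, a lectin of goblet cell mucus, read 7.13, 7.18 and 7.27 in T399I and 8.71, 8.79 and 8.50 in WT, 2.78-fold lower. TFF2, a trefoil peptide, read 8.02, 7.79 and 7.97 in T399I and 9.08, 9.08 and 9.25 in WT, 2.31-fold lower. In all 6 of 16 goblet genes rose (3 without T399I replicate 3 or WT replicate 3) and 4 fell. Over all genes 8.37% rose and 6.02% fell. Of 26 enteroendocrine genes 4 rose (2 without WT replicate 2) and 1 fell, and beside NTS the secretory granule genes CPE, a prohormone-processing carboxypeptidase, and CHGB rose 1.85-fold and 1.64-fold (the latter not called without WT replicate 2), while the calcium-binding protein SCGN fell 2.07-fold. Brush border genes had 4 of 32 higher and 4 lower. MYO1A, the myosin of microvilli, read 9.33, 9.48 and 9.25 in T399I and 10.14, 10.09 and 10.06 in WT, 1.67-fold lower, and HNF4G, an enterocyte transcription factor, rose 1.71-fold. Among transporters, 5 of 32 rose (2 without any 1 of T399I replicate 2 or 3 or the WT replicates) and 7 fell. SLC7A8, which carries neutral amino acids, rose 2.29-fold and SLC36A1, a proton-coupled amino acid carrier, fell 1.84-fold.

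In metabolism, PDK1, the kinase that shuts off pyruvate dehydrogenase in hypoxia, read 9.36, 9.18 and 9.25 in T399I and 10.46, 10.42 and 10.37 in WT, 2.22-fold lower (difference -1.15, SE 0.06, adjusted p = 2.12e-06). Of 32 hypoxia and glycolysis genes 8 fell and 4 rose, where 6.02% of all genes fell and 8.37% rose. In this list 2 rose without T399I replicate 3 or WT replicate 2 or 3. BNIP3, a mitophagy receptor, and DDIT4, an inhibitor of mTORC1, fell 1.72-fold and 1.51-fold, and HK1, a hexokinase, rose 1.85-fold. Among drug-metabolising enzymes and NRF2 targets 13 of 45 rose and 5 fell. The rises were 8 without WT replicate 2, and the falls 3 without WT replicate 1 or 2. CYP3A5, a drug-oxidising enzyme of gut and liver, read 7.78, 8.00 and 8.11 in T399I and 6.24, 6.09 and 6.48 in WT, 3.23-fold higher (difference 1.69, SE 0.11, adjusted p = 6.54e-06), and was higher still in D299G, at 9.59 ± 0.02. Cholesterol synthesis had 3 of 22 genes higher and 3 lower. The rises were 1 or 0 when any 1 array was left out. The unfolded protein and amino acid stress list had 6 of 33 higher and 3 lower. The p53 and apoptosis list had 1 of 23 higher and 4 lower. The falls were 1 without WT replicate 1, and the rise was lost without T399I replicate 2 or 3 or WT replicate 1 or 3, while 2 rose without T399I replicate 1. The lineage transcription factors had 4 of 32 higher and 7 lower, with 2 to 4 lower without any 1 of the arrays other than T399I replicate 1. Protease inhibitors had 5 of 24 higher and 3 lower. Oncofetal genes had 2 of 24 in each direction (8.33%), near the shares over all genes. Leukocyte and endothelial markers had 1 of 20 in each direction (5.0%), also near those shares, and 0 lower without T399I replicate 1 or 2 or WT replicate 3. Paneth cell markers had 1 of 10 higher (2 without T399I replicate 1) and 2 lower (1 without any 1 array).

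Where the called genes lie in the genome was not even. This description was chosen after the values were seen and carries no test. On the X chromosome 167 of 694 measured genes were lower in T399I and 8 higher, a share of 24.1% lower against 6.03% over all 18365 placed genes. Over the 335 X genes above the median level of the array, 91.3% had a difference below 0 and the median was -0.28, where it was -0.01 over all genes of that level. The mean level of these 335 genes minus that of all genes above the median was -0.42, -0.38 and -0.39 on the T399I arrays. It was -0.09, -0.09 and -0.10 on the WT arrays, from -0.08 to -0.07 on the D299G arrays and from -0.04 to -0.02 on the untransfected arrays. All 3 T399I arrays thus lay apart from all 9 other arrays. Of the 286 genes lower in T399I than in each other group, 78 were on X. With any 1 array left out, 129 to 158 X genes were lower, with centred arrays 129, and in the fit of 6 arrays 110.

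Other chromosomes leaned to one side as well. On chromosome 18, 50 of 264 genes fell and 6 rose, and on chromosome 3, 128 of 1011 fell and 38 rose. Chromosome 1 went the other way, with 304 of 1866 higher and 33 lower, as did chromosome 10, with 124 of 679 higher and 28 lower. These counts moved with single arrays. On chromosome 18, 33 fell without WT replicate 1 and 30 without WT replicate 2, and on chromosome 3, 74 and 72. On chromosome 1, 193 rose without T399I replicate 3, and on chromosome 10, 74 rose without T399I replicate 2 or 3. With centred arrays 31 fell on chromosome 18 and 77 on chromosome 3. In the fit of 6 arrays 27 and 66 fell on these, and 178 and 64 rose on chromosomes 1 and 10. On chromosome 1, 123 genes were lower in WT than in each other group and 34 were higher in T399I than in each. On chromosome 18, 14 were higher in WT than in each other group and 6 lower in T399I, and on chromosome 3, 37 and 24. For 142 chromosome 18 genes above the median level, the mean minus that of all such genes was -0.30 to -0.25 on T399I arrays. It was -0.10 to -0.06 on WT arrays, -0.21 to -0.18 on D299G arrays and -0.12 to -0.09 on untransfected arrays. Of the 6 mitosis genes on chromosome 1, 5 rose, and of the 35 elsewhere 19 did.

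Within chromosomes, 24 runs of at least 8 neighbouring genes had differences of a single sign with 5 or more of them called. The metallothionein cluster on chromosome 16 from MT2A to NUP93 had 10 of 12 genes higher (median 0.59), including NUP93, a nuclear pore protein that is no metallothionein and rose 1.3-fold. On chromosome 12, 8 of 15 genes from BCAT1 to BMAL2 were higher. Among them ITPR2, a calcium release channel of the endoplasmic reticulum, read 7.33, 7.82 and 7.68 in T399I and 6.08, 6.32 and 6.02 in WT, 2.77-fold higher, and was higher again in D299G and untransfected cells, at 8.61 ± 0.06 and 8.50 ± 0.09. On chromosome 1, 9 of 15 genes from FAF1 to TUT4 were higher, led by NRDC, a metallopeptidase, at 10.22, 10.35 and 10.23 in T399I and 9.59, 9.65 and 9.47 in WT. A run of 21 loci on chromosome 15 with 8 higher, from PWAR6 to SNORD116-29, is made of small nucleolar RNAs nearly identical in sequence.

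Runs of lower genes lay on X, on chromosome 18 and, with 5 of 21 genes called, on chromosome 19. On X, 8 of 11 genes from SLC25A43 to NDUFA1 fell (median -0.42). SLC25A5, the ADP/ATP carrier of the inner mitochondrial membrane, read 11.82, 11.92 and 11.92 in T399I and 12.24, 12.32 and 12.36 in WT, 1.34-fold lower, but D299G at 11.79 ± 0.05 lay with T399I and untransfected cells at 12.22 ± 0.09 with WT. By group means, the other genes called in this run were also lower in D299G than in WT, though SEPTIN6 hardly so, at 7.32 against 7.37. In the run of 21 genes from TMEM187 to MPP1, with 8 lower, RPL10, a ribosomal protein, and IRAK1 fell 1.41-fold and 1.26-fold. The genes called in this run had lower group means in D299G than in WT as well. RPL10 and IRAK1 read 10.73 and 8.26 in D299G against 11.08 and 8.26 in T399I. MPP1, a membrane scaffold protein, read 8.41, 8.72 and 8.55 in T399I and 9.30, 9.29 and 9.33 in WT, 1.68-fold lower. Elsewhere on X, GPC3, a heparan sulfate proteoglycan of fetal liver, read 11.30, 11.41 and 11.32 in T399I and 12.52, 12.37 and 12.36 in WT, 2.1-fold lower, with 12.05 ± 0.08 in D299G and 13.12 ± 0.02 in untransfected cells. On chromosome 18, MALT1, a protease of NF-kB signalling, read 7.45, 7.82 and 7.65 in T399I and 8.77, 8.74 and 8.58 in WT, 2.08-fold lower (difference -1.06, SE 0.10, adjusted p = 9.9e-05), and NEDD4L, a ubiquitin ligase that limits sodium channels, read 9.29, 9.37 and 9.35 in T399I and 10.09, 9.98 and 9.88 in WT, 1.57-fold lower. For both, WT was the high group and D299G lay near T399I, at 7.87 ± 0.07 and 9.24 ± 0.04.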

How the data were processed

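RNA from 12 samples was hybridised to Affymetrix whole-transcript arrays, 1 array per sample. Per the submitters' processing notes, the authors used Affymetrix Expression Console 1.0 and RMA, and the deposited values are log2 expression values with 0 missing. The genome build of the array is not given in the sources used here. Values were used as deposited. limma 3.58.1 in R 4.3.3 fitted group means to all 12 arrays (8 residual degrees of freedom, empirical Bayes without trend or robust prior), and two-sided p-values were adjusted across probe sets by Benjamini-Hochberg. The fitting script was tested on simulated data.

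Of 33297 probe sets, 19460 had 1 gene symbol, 1754 several and 12083 none, and 683 called probe sets without a single symbol are counted but not named. Each gene was represented by the probe set brightest on average across arrays, which gave 18417 genes, 769 of them with several probe sets. Gene order came from RefSeq (GRCh38.p14), whose table matched 19433 of the probe sets with 1 symbol.

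Named were TLR4, LY96, CD14 and MYD88, the 15 largest rises and falls among called genes whose arrays did not overlap, and the 8 and 8 genes that most part T399I, and 5 and 5 that most part WT, from every group. Up to 4 called members of each of 32 gene lists and the members of the leading runs of neighbouring genes were added, while small RNAs, unnamed loci, pseudogenes and near-identical families stayed out of the ranked picks. The comparison, its members and the lists were chosen with earlier results of these data known. Alternatives were a fit of the 6 arrays alone, a replicate block, array centring, renewed quantile normalisation, filters on dim probe sets, another prior, array weights, the mean of a gene's probe sets and leaving out each array. The number of arrays limits the precision.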

Additional observations from a re-analysis of the deposited data

How the results depend on the processing

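The arrays carry no detection calls, so differences near background have no floor. With 3 arrays a group the counts of calls moved with the setting. No called named gene turned its sign in any alternative. These genes were chosen as called in the same arrays, so that outcome does not test how stable directions are. Called probe sets numbered 6084 with array weights and 1945 in the fit of 6 arrays, against 3456. Higher calls were 3319 and 1111 under these settings and lower calls 2765 and 834, and with centred arrays 913 were lower. With any 1 array left out, called probe sets ranged from 2119 to 3617, higher calls from 1171 to 2252 and lower calls from 859 to 1365. Among probe sets above the median level, 104 were called at least 2-fold apart, against 162. Probe sets that part T399I from every group numbered 1295 with array weights, against 714, and 408 to 766 with 1 array left out. Those that part WT were 967, and 644 to 995 with 1 array left out. Between T399I and D299G, 7555 were called with array weights, against 4476, and 3255 to 4682 with 1 array left out. Runs of neighbouring genes were 39 with the mean of a gene's probe sets, against 24. The causes were not tested. TLR4 was not called in any alternative. Of the 177 named genes called, 147 were called in the fit of 6 arrays, 164 with centred arrays and 151 to 164 with 1 array left out.

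The groups share replicate numbers. The deviations of same-numbered T399I and WT arrays correlated at 0.0739, 0.2437 and -0.0157. Those of arrays with unlike numbers ran from -0.2655 to 0.2093, the latter for T399I replicate 1 with WT replicate 3. With 3 arrays a group these values cannot settle whether the numbers pair the samples. With the replicate number as a block 3465 probe sets were called.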
